A study of Mus musculus with 46 samples.

Results

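The 130 mouse genes described here carry the symbol Zfp followed by a number, the name given to zinc finger proteins that have no other family name, and they were examined in single ovarian follicles over the first 8 h of an ovulatory stimulus. Of the 25147 genes in the deposited count table, 334 have such a symbol, and the members were picked among them. They were chosen by their measured counts. A gene was kept where it averaged at least 5 CPM (counts scaled to a common library total) over the 46 follicles, which left 148. Of these, 18 were then dropped because none of the 6 follicles sampled after the stimulus in batch 2 had a count for them. The remaining 186 Zfp genes lay under the level, 4 of them with no count in any follicle. Just inside the limit were Zfp84 at 5.06 CPM, Zfp568 at 5.07 CPM and Zfp758 at 5.18 CPM, and just outside it Zfp398 at 4.99 CPM, Zfp623 at 4.97 CPM and Zfp933 at 4.97 CPM.

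Most Zfp proteins bind DNA through fingers of the C2H2 kind, loops in which a pair of cysteines and a pair of histidines hold a zinc ion and neighbouring residues read a few bases. Many also carry a KRAB domain, which recruits the corepressor Trim28 and through it the histone methyltransferase Setdb1, and KRAB genes lie in chromosomal clusters of recent copies and are best known for silencing retroelements and imprinted regions. Others have a SCAN domain, which joins proteins in pairs, or no such domain, and serve as promoter factors, as subunits of chromatin complexes, or in RNA processing and cell division.

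The follicles came from CD-1 mice, an outbred stock, and were cultured 1 to a well in alginate gel for 8 days. They were then matured in a medium with human chorionic gonadotropin (hCG) at 1.5 IU/ml, which stands in for the surge of luteinizing hormone. That medium also held 10 ng/ml epidermal growth factor, 10 mIU/ml recombinant follicle-stimulating hormone and 10% fetal bovine serum. What the follicles labelled 0 h had received is not stated further, so in a comparison with 0 h hCG and the change of medium cannot be told apart. In batch 2, 9 follicles were taken at 0 h, 3 more after 1 h and another 3 after 4 h. Batch 1 has 10 from 1 h, 10 from 4 h and 11 from 8 h, with none from 0 h. No untreated follicles of matching culture time are described, and which follicles shared an animal is not stated, so a p-value here measures the spread between follicles. Of the 9 libraries at 0 h, 5 carry a suffix, _ds, whose meaning is not stated. Each time was compared with an earlier one inside a batch. Levels given below for a gene are CPM of library sizes scaled with edgeR's TMM factors.

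Library totals ran from 241442 to 5185044 counts. The 3 libraries of batch 2 at 1 h held 379640, 401328 and 765600 counts (lowest, median and highest), against 1633566, 3286107 and 5185044 in the 0 h libraries. Between 98 and 114 of the 130 genes had a count in a library of that 1 h group, against 129 or 130 in a 0 h library. A set of 3332 genes had no count in the 6 batch 2 libraries after hCG although they were counted in batch 1. They held 22.6% to 46.2% of all counts at 0 h, but no more than 0.0667% in any later library. The dropped 18 Zfp genes belong to that set: Zfp58, for example, ranged from 0 to 2436 CPM over the 0 h follicles and reached 4.14 CPM at most in batch 1. The 7 granulosa markers summed to between 8616 and 51130 CPM over all follicles, and Amh, one of them, had no count in batch 2 at 1 h or 4 h. The 11 oocyte markers summed to at most 169 CPM in any follicle. Because each library is a whole follicle, fewer cells of a type and less RNA per cell cannot be told apart.

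By the deposited TPM values, which are scaled for gene length and so allow genes to be compared, the median of the 130 genes was 5.86 TPM over the 46 libraries, and the quartiles were 3.36 and 10.6 TPM. Zfp207, which brings the checkpoint protein Bub3 to kinetochores and binds spindle microtubules, was the highest at 129 TPM, with group means between 45.4 and 248 TPM. Zfp706, known in mouse embryonic stem cells for promoting the exit from self-renewal, followed at 93.9 TPM, Zfp369 at 67.7 TPM and Zfp950 at 61.2 TPM. Zfp131, a BTB zinc finger protein, averaged 59.9 TPM and Zfp277, a partner of Polycomb proteins at the Ink4a locus, 48.6 TPM. Zfp52 averaged 41.9 TPM, Zfp868 30.1 TPM, Zfp281 29.6 TPM and Zfp932 29.0 TPM. The order of neighbours in this ranking is not firm, since group means of Zfp706 ranged from 42.9 to 147 TPM and those of Zfp52 from 2.14 to 79.9 TPM.

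The class of each protein was read from translated reference coding sequences by matching letter patterns. A KRAB pattern was found in 54 members, with a median of 12 fingers, and a SCAN pattern in 8 others. A further 66 had fingers but neither pattern, with a median of 8 fingers, and Zfp330 and Zfp703 matched no finger. Chromosome 7 carries 22 of the 130 genes and chromosome 17 carries 19.

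At 1 h after hCG more members were lower than higher. In all, 45 of the 130 genes were lower than at 0 h in batch 2 and 8 were higher. The test was edgeR's quasi-likelihood test with a Benjamini-Hochberg adjusted p under 0.05 over all 10524 genes tested, the rule for every gene said below to be higher or lower. Over all genes, 8.42% were higher and 23% lower. The lower share was 20.3% once genes with no count in the 6 later batch 2 libraries were set aside, as they were among the members. The median log2 fold change was -0.59 for the members and -0.28 for all genes tested. Since the choice of members used the zeros of these libraries and an average level over all groups, and 59 of the 130 members averaged under 5 CPM in at least 1 group, these counts are a description. With batch 2 fitted alone, 23 were lower and 8 higher, with medians of -0.51 for the members and -0.25 for all genes. Without the 5 libraries with the _ds suffix 36 were lower and 6 higher, with medians of -0.66 and -0.16. For such alternative fits the shares of all genes called are not given, here and below, so their counts describe the members only. Limma on the deposited TPM gave 40 lower and 19 higher with log2(TPM + 1), and 45 and 15 with log2(TPM + 0.1). The medians of the log2(TPM + 1) fit were -0.30 for the members and 0.005 for all genes. The follicles of the groups did not overlap for 7 of the 8 higher members, with 63.9% of all higher genes. They did not overlap for 22 of the 45 lower members (48.9%), against 49.6% of all lower genes. Among lower genes with a count in the 6 later batch 2 libraries, the share was 56.1%. The summed level of the members was 1955, 1980 and 2129 CPM in the 3 follicles at 1 h, against a lowest of 2574, a median of 2903 and a highest of 4049 CPM at 0 h, and the groups did not overlap.

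Depth and the levels of some marker genes moved with this comparison. The lower depth of the 1 h libraries is given above, and the 4 smooth muscle markers summed to between 852 and 1102 CPM at 1 h, against 27.0 to 449 CPM at 0 h, with Cnn1 at 0 counts at 1 h. Of the 2 tested, Acta2 was higher at 1 h by 2.68 ± 0.55 (SE, edgeR adjusted p = 2.2e-04), and Tagln had -1.02 ± 1.72 (SE, edgeR adjusted p = 0.69). The 11 oocyte markers summed to between 32.9 and 169 CPM at 1 h, against 10.7 to 61.8 CPM at 0 h, with Oosp1 at 0 counts at 1 h. The granulosa markers summed to between 20303 and 41170 CPM at 1 h (median 22665), against 19300 to 50981 CPM at 0 h (median 38184). Of those tested, Foxl2 was lower, with a log2 fold change of -2.96 ± 0.74 (SE, edgeR adjusted p = 0.0019). Cyp19a1 was higher by 2.03 ± 0.50 (SE, edgeR adjusted p = 0.0016), and the others did not pass. The part of these markers in the result was not tested. Among the 49 members whose mean log2 CPM reached 4, 18 (36.7%) were lower, against 20.6% of all genes at that level. Among the 81 below it 27 (33.3%) were lower, against 22% of all genes from 2.5 to 4 on that scale. With every library thinned to the lowest total, 33 members could still be tested, of which 9 were lower and 4 higher, against 12 lower and 5 higher for the same 33 at full depth. The count of lower members was 29 without 1 h replicate 11, the largest shift from leaving out 1 of the 3 follicles.

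**Figure D1:**
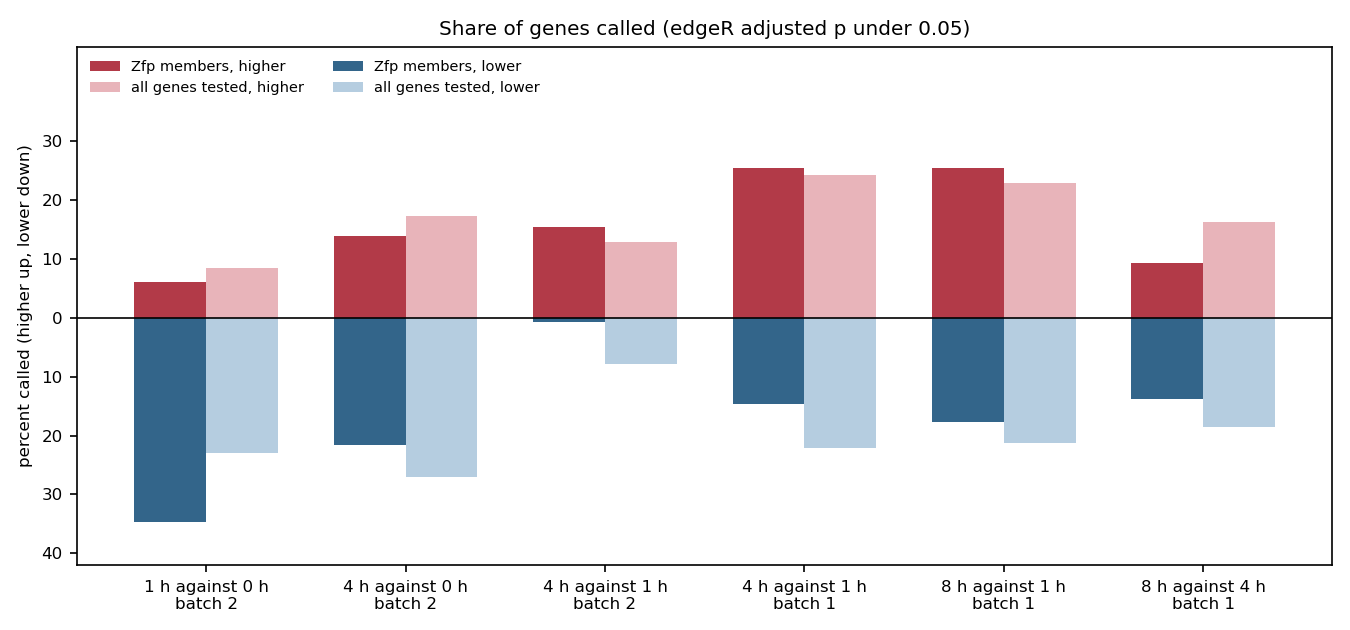
Share of genes with an edgeR adjusted p under 0.05 in the 6 comparisons within a batch, with genes higher at the later time drawn upward and genes lower drawn downward, for the 130 Zfp genes (dark bars) and all 10524 genes tested (pale bars). The lower share at 1 h against 0 h is 34.6% for the Zfp genes and 23% for all genes, and in 4 h against 1 h of batch 2 the Zfp genes are 15.4% higher and 0.77% lower.

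At 4 h the members divided more evenly. Against 0 h in batch 2, 18 were higher and 28 lower, with 17.3% of all genes higher and 27% lower (24% lower without the genes at 0 in the 6 libraries). Both medians were -0.10 on the log2 scale. The count of lower members was 16 without 4 h replicate 11 and 14 without 4 h replicate 13, so its excess over the higher ones rests on those follicles. With batch 2 fitted alone, 13 were higher and 14 lower, with medians of -0.08 for the members and -0.16 for all genes. The comparisons of 1 h and 4 h with 0 h share the 0 h libraries and are set side by side. Of the members, 19 were called lower at both times, 25 at 1 h alone and 9 at 4 h alone. A further 5 were called higher at both and 12 at 4 h alone, and Zfp207 was lower at 1 h and higher at 4 h. Shares of all genes with these patterns were not taken, so the counts describe the members only.

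The step between 1 h and 4 h was measured in both batches. In batch 2, 20 members were higher at 4 h than at 1 h and 1 was lower, Zfp580, named here after its value was seen. Zfp580 had 1 count at 4 h against 6 at 1 h, and its groups overlapped. Among the 20, Zfp143, Zfp719, Zfp26, Zfp68 and Zfp740 had 2 or fewer counts at 1 h, and Zfp740 is also named after its value was seen. Over all genes, 12.9% were higher and 7.92% lower. The median log2 fold change was 0.43 for the members and 0.04 for all genes. With batch 2 fitted alone, 8 were higher and none lower, with medians of 0.37 for the members and 0.0 for all genes. With RLE size factors in place of TMM the split was 13 higher and 3 lower, with medians of 0.31 and 0.0. In batch 1, 33 were higher and 19 lower, with 24.2% of all genes higher and 22.1% lower. The medians were 0.17 for the members and -0.01 for all genes. When library sizes left out the set of 3332 genes, they were 0.06 for the members and -0.12 for all genes, and 28 members were higher and 22 lower. The batches share no library: 11 members were higher in both, which is 55.0% of the 20 and 33.3% of the 33, and none was called in opposite directions. This overlap was not counted over all genes. Of the 52 members called in batch 1, 44 (84.6%) had the same sign in batch 2, close to the 82.5% of all genes called in batch 1. On the deposited TPM with limma, log2(TPM + 1), 37 were higher and 14 lower in batch 1. The medians of that limma fit were 0.27 for the members and 0.09 for all genes.

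Marker genes also differed between 4 h and 1 h. In batch 1 the theca and stroma markers summed to a median of 172 CPM (36.7 to 1708) at 4 h, against 966 CPM (114 to 2348) at 1 h, and 2 of the 6 tested were lower. Of the 6 granulosa markers tested there, 4 were lower and none higher, among them the aromatase gene Cyp19a1 at -4.22 ± 0.42 and the receptor gene Fshr at -2.80 ± 0.38 (SE, edgeR adjusted p = 3.0e-11 and 3.9e-08). In batch 2, Cyp19a1 was lower over the same step, with a log2 fold change of -4.93 ± 0.79 (SE, edgeR adjusted p = 1.1e-05). Fshr and Nr5a2 were lower too, at -3.97 ± 0.74 and -3.07 ± 0.43 (SE, edgeR adjusted p = 1.1e-04 and 8.4e-07). The other granulosa markers tested did not pass. Of the smooth muscle markers tested there, Tagln was higher by 4.63 ± 1.46 (SE, edgeR adjusted p = 0.019), and Acta2 had -0.32 ± 0.73 (SE, edgeR adjusted p = 0.84). Their part in the members' values was not tested.

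Later changes were seen in batch 1 alone. At 8 h against 1 h, 33 members were higher and 23 lower, with 22.9% of all genes higher and 21.2% lower, and the TPM values gave 44 and 14 by limma. All genes also lay higher in that limma fit. Its median log2 fold change was 0.36 for the members and 0.20 for all genes, against 0.15 and 0.01 in the main fit. At 8 h against 4 h, 12 were higher and 18 lower, with 16.2% of all genes higher and 18.6% lower. With batch 1 fitted alone, where 116 members were tested, 20 were higher and 19 lower. The granulosa markers summed to between 8616 and 17439 CPM at 8 h, against 15059 to 49716 CPM at 1 h, and the smooth muscle markers to between 57.2 and 372 CPM at 8 h, against 446 to 2117 CPM at 1 h. The part of these shifts in the members' values was not tested. No batch holds both 8 h and 0 h. An additive fit of time and batch, which assumes that steps add up across batches, had 20 members higher and 36 lower at 8 h than at 0 h, with 16.6% of all genes higher and 26.8% lower.

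In batch 2, 63 members had their highest group mean at 0 h, 22 had it at 1 h and 45 had it at 4 h, which is 48.5%, 16.9% and 34.6%, against 43.8%, 23.4% and 32.8% of all genes tested. In batch 1, 41 members peaked by that measure at 1 h, 39 members at 4 h and 50 members at 8 h, which is 31.5%, 30% and 38.5%, against 38.4%, 30.9% and 30.8% of all genes tested. At least 1 comparison within a batch called 100 of the 130 (76.9%), against 81.7% of all genes tested, and 30 passed in none. Of the 45 members lower at 1 h than at 0 h in batch 2, 11 were higher at 4 h than at 1 h in batch 1, which is 24.4% of the 45 and 33.3% of the 33 higher there. Of the others, 9 were lower and 25 were not called. The 24.4% is near the 24.2% of all genes tested that were higher in that batch 1 step.

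Zfp207 changed direction after the first hour. It stood at 56.1, 62.9 and 73.1 CPM in the 3 follicles at 1 h of batch 2, against a lowest of 152, a median of 178 and a highest of 314 CPM at 0 h. At 4 h it was at 372, 341 and 379 CPM, so each of these groups lay apart from the others. The log2 fold change was -1.63 ± 0.21 for 1 h against 0 h (SE, edgeR adjusted p = 3.5e-08) and 2.51 ± 0.24 for 4 h against 1 h (SE, edgeR adjusted p = 4.2e-10). In batch 1 it ranged from 182 to 327 CPM at 4 h (median 230), against 89.3 to 148 CPM at 1 h (median 114), a rise of 1.10 ± 0.13 (SE, edgeR adjusted p = 4.2e-10), again with no overlap. The rise in batch 1 was smaller than that in batch 2 by 1.41 ± 0.26 on the log2 scale (edgeR adjusted p of the difference 8.4e-04). Zfp207 lies on chromosome 11 from 80383279 to 80405733 of GRCm38, on the plus strand.

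Zfp553 had the largest rise at 4 h against 1 h in both batches among called members whose mean log2 CPM reached 4, leaving out Zfp68, which had 3 or fewer counts in a group. It was at 20.7, 35.5 and 31.5 CPM at 4 h in batch 2, against 6.10, 4.50 and 2.61 CPM at 1 h, with a log2 fold change of 2.61 ± 0.52 (SE, edgeR adjusted p = 2.0e-04). In batch 1 it ranged from 20.2 to 37.4 CPM at 4 h (median 29.2), against 0 to 11.1 CPM at 1 h (median 5.70), and rose by 2.36 ± 0.27 (SE, edgeR adjusted p = 3.2e-10). Every follicle at 4 h lay above every follicle at 1 h in both batches. At 8 h it was at 21.5 to 34.7 CPM, higher than at 1 h by 2.29 ± 0.26 (SE, edgeR adjusted p = 4.6e-10). Against 0 h, where it ranged from 10.8 to 27.1 CPM, it was lower at 1 h, with a log2 fold change of -1.92 ± 0.47 (SE, edgeR adjusted p = 0.0016).

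Zfp664 rose at 4 h and fell at 8 h within batch 1. It ranged from 59.9 to 101 CPM at 4 h (median 70.5), against 23.6 to 33.4 CPM at 1 h (median 30.3), and from 26.7 to 55.4 CPM at 8 h (median 39.3). The rise at 4 h was 1.3 ± 0.12 (SE, edgeR adjusted p = 4.0e-12) and the log2 fold change of 8 h against 4 h was -0.83 ± 0.11 (SE, edgeR adjusted p = 1.2e-07), and follicles at 4 h overlapped with neither other time. In batch 2 it was at 56.9, 63.8 and 56.0 CPM at 4 h, against 29.3, 38.2 and 39.1 CPM at 1 h, a rise of 0.74 ± 0.23 (SE, edgeR adjusted p = 0.015), which was 0.60 (edgeR adjusted p = 0.098) without 1 h replicate 11.

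Zfp574 rose across batch 1, to a range of 26.7 to 53.7 CPM at 8 h (median 42.6), against 2.95 to 24.1 CPM at 1 h (median 12.4), by 1.50 ± 0.23 (SE, edgeR adjusted p = 4.1e-07). In batch 2 it ranged from 19.1 to 32.5 CPM at 4 h, against 15.7 to 19.5 CPM at 1 h, and the difference did not pass the test (edgeR adjusted p = 0.53). All 8 h follicles lay above all 1 h follicles in batch 1.

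Zfp131 was among the few members that rose in the first hour. It stood at 65.9, 53.9 and 57.4 CPM at 1 h in batch 2, against 18.4 to 37.1 CPM at 0 h (median 24.6), with a log2 fold change of 1.23 ± 0.29 (SE, edgeR adjusted p = 8.1e-04) and no overlap. In batch 1 it fell to a range of 15.0 to 34.6 CPM at 8 h (median 25.6), against 32.3 to 104 CPM at 1 h (median 57.6), with a log2 fold change of -1.33 ± 0.19 (SE, edgeR adjusted p = 1.6e-07). The 8 h and 1 h groups overlapped only at their edges.

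Zfp655, whose protein binds the signalling protein Vav, fell at each step of batch 1. It ranged from 10.5 to 25.8 CPM at 8 h (median 20.1), against 52.8 to 92.0 CPM at 1 h (median 68.3), and the 4 h follicles ranged from 24.1 to 50.2 CPM. The log2 fold change of 8 h against 1 h was -1.83 ± 0.21 (SE, edgeR adjusted p = 7.6e-10). Zfp277 was called only in comparisons with its 8 h level. It ranged from 17.9 to 38.6 CPM at 8 h (median 28.9), against 57.8 to 169 CPM at 4 h (median 87.1), a log2 fold change of -1.72 ± 0.22 (SE, edgeR adjusted p = 1.2e-08) with no overlap.

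**Figure D2:**
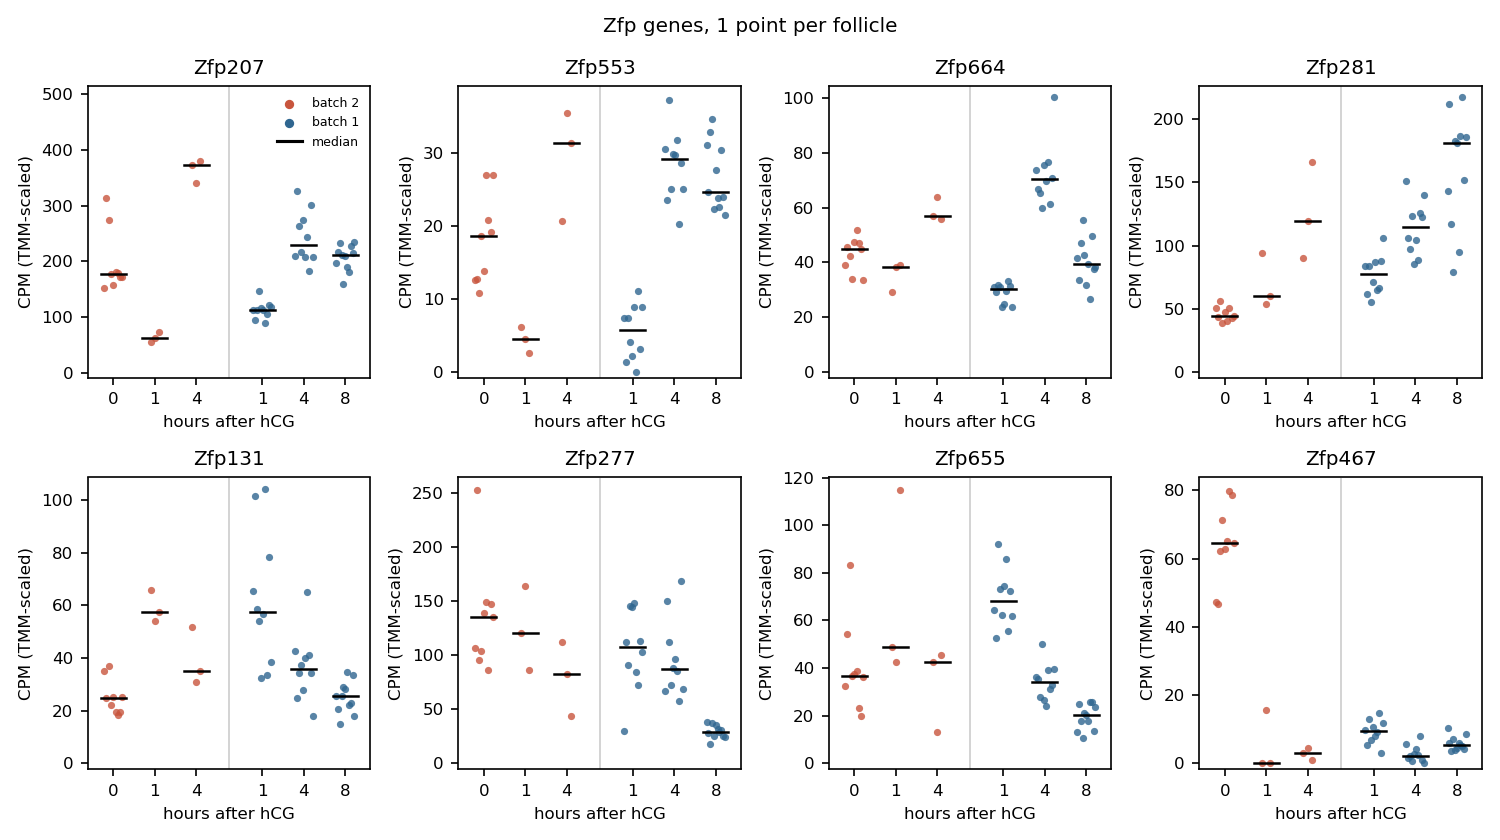
Levels of 8 Zfp genes in CPM of TMM-scaled library sizes (vertical axes, linear) in each follicle against hours after hCG (horizontal axes), with batch 2 on the left of each panel (red), batch 1 on the right (blue) and a bar at each group's median. Zfp207 and Zfp553 drop at 1 h and are high at 4 h in batch 2, Zfp664 peaks at 4 h, Zfp281 climbs at each time, and Zfp467 stays under 16 CPM in every follicle after hCG.

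Zfp467, which in mice favours fat over bone in marrow stroma, was furthest below its level at 0 h among called members whose mean log2 CPM reached 4 and that had more than 3 counts in each group. It was at 0, 15.7 and 0 CPM at 1 h and at 3.13, 4.61 and 0.87 CPM at 4 h of batch 2, against 46.6 to 79.8 CPM at 0 h (median 64.5). The log2 fold change was -3.79 ± 0.60 at 1 h (SE, edgeR adjusted p = 3.1e-06) and -4.39 ± 0.55 at 4 h (SE, edgeR adjusted p = 8.6e-09). In batch 1 it was lower at 4 h than at 1 h, with a log2 fold change of -1.65 ± 0.36 (SE, edgeR adjusted p = 1.8e-04), and rose at 8 h against 4 h by 1.00 ± 0.33 (SE, edgeR adjusted p = 0.015).

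Zfp266, known to impede the reprogramming of mouse cells, was at 29.3, 51.7 and 120 CPM at 1 h, against 152 to 428 CPM at 0 h (median 233), a log2 fold change of -1.92 ± 0.35 (SE, edgeR adjusted p = 3.3e-05). It was also lower at 8 h than at 1 h in batch 1, at 35.1 to 66.7 CPM against 68.7 to 125 CPM, with a log2 fold change of -0.95 ± 0.20 (SE, edgeR adjusted p = 1.3e-04). Zfp275 was lower at 1 h, with a log2 fold change of -2.62 ± 0.61 (SE, edgeR adjusted p = 8.1e-04), and its 0 h group held 1 follicle at 198 CPM beside 8 at 21.1 to 42.5 CPM. Zfp934, named after its values were seen, shares 38.1% of its 50-base words with Zfp808, so that reads of the pair may be mixed. It ranged from 0 to 2.58 CPM at 4 h of batch 1, against 2.95 to 11.9 CPM at 1 h, and fell by 2.86 ± 0.52 (SE, edgeR adjusted p = 1.2e-05).

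A few members had almost no counts at 1 h of batch 2, and Zfp719 and Zfp26 are named after their values were seen. Zfp143, which binds promoters and chromatin loop anchors, had 0 counts in the 3 libraries, against 472 over the 9 at 0 h. It was at least 11.4-fold lower, taking 3 counts over the group as the floor. Zfp719 had 0 counts against 410 and was at least 9.93-fold lower. Zfp68, a KRAB protein gene, had 2 counts against 741, a ratio of 26.9 (95% exact interval 7.43 to 223), and Zfp26 had 1 against 465, a ratio of 33.8 (6.03 to 1337). These intervals and floors cover counting error only. At 4 h Zfp68 was back at 16.3, 28.3 and 16.6 CPM, against 1.22, 0 and 2.61 CPM at 1 h. Among the 122 members with more than 3 counts in the 3 libraries, 39 were lower and 8 higher at 1 h than at 0 h. The share of all genes under that condition was not taken.

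Among the 15 members listed as subunits of chromatin complexes or promoter factors, 2 were higher and 7 lower at 1 h than at 0 h, with 8.42% of all genes higher and 23% lower. At 4 h against 1 h in batch 2, 4 were higher and none lower, with 12.9% and 7.92% over all genes. At 8 h against 1 h in batch 1, 7 were higher and 3 lower, with 22.9% and 21.2% over all genes. Lists of this size are described by their counts alone, here and below. Zfp281, a repressor that brings the NuRD complex to target genes in mouse embryonic stem cells, was higher at every step tested. It reached 90.1, 120 and 166 CPM at 4 h in batch 2, against 38.8 to 56.5 CPM at 0 h, by 1.44 ± 0.21 (SE, edgeR adjusted p = 3.7e-07). It reached 79.3 to 217 CPM at 8 h in batch 1, against 55.6 to 106 CPM at 1 h, by 1.05 ± 0.15 (SE, edgeR adjusted p = 1.6e-07). Its rise at 1 h, 0.60 ± 0.23 (SE, edgeR adjusted p = 0.041), was 0.43 (edgeR adjusted p = 0.25) without 1 h replicate 11. Its batch 2 rise at 4 h against 1 h, 0.84 ± 0.29 (SE, edgeR adjusted p = 0.030), was 0.57 to 0.73 (edgeR adjusted p from 0.11 to 0.21) without 1 h replicate 12, 1 h replicate 13 or 4 h replicate 13.

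The partners of the histone methyltransferases Ehmt1 and Ehmt2 in this list moved apart. Zfp462, which recruits these enzymes in mouse embryonic stem cells, ranged from 3.76 to 20.0 CPM at 4 h in batch 1 (median 13.3), against 0 to 7.92 CPM at 1 h (median 0.41). It rose by 2.73 ± 0.43 (SE, edgeR adjusted p = 7.3e-07), and fell at 8 h against 4 h with a log2 fold change of -1.45 ± 0.31 (SE, edgeR adjusted p = 2.1e-04). In batch 2 it was at 18.8, 8.56 and 10.5 CPM at 4 h, against 1.17 to 4.75 CPM at 0 h, by 2.05 ± 0.44 (SE, edgeR adjusted p = 1.9e-04). Zfp644 ranged from 13.2 to 25.2 CPM at 4 h in batch 1, against 26 to 75.4 CPM at 1 h, and fell by 1.47 ± 0.20 (SE, edgeR adjusted p = 2.9e-08) with no overlap. In batch 2 the same step of Zfp644 did not pass, at -0.16 ± 0.36 (SE, edgeR adjusted p = 0.84). It was lower there at 4 h than at 0 h, with a log2 fold change of -0.99 ± 0.29 (SE, edgeR adjusted p = 0.0049).

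Zfp592, Zfp687 and Zfp532 encode zinc finger proteins that share a complex with Zmynd8. Zfp687 was at 4.88, 2.25 and 0 CPM at 1 h, against 7.69 to 16.4 CPM at 0 h, a log2 fold change of -2.0 ± 0.57 (SE, edgeR adjusted p = 0.0062). The value was -1.52 (edgeR adjusted p = 0.063) without 1 h replicate 13. It rose by 1.05 ± 0.28 at 8 h against 1 h in batch 1 (SE, edgeR adjusted p = 0.0018). Zfp592 was lower at 1 h, with a log2 fold change of -1.03 ± 0.41 (SE, edgeR adjusted p = 0.047), a call lost without 1 h replicate 11 (edgeR adjusted p = 0.31) or 13 (edgeR adjusted p = 0.42), and Zfp532 passed in none of the within-batch comparisons.

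Zfp410, an activator of the NuRD remodeller gene Chd4, was at 45.7, 34.9 and 45.5 CPM at 4 h of batch 2, against 11.7 to 34.8 CPM at 0 h, by 0.81 ± 0.25 (SE, edgeR adjusted p = 0.0066). Chd4 rose there by 0.74 ± 0.21 (SE, edgeR adjusted p = 0.0028). At 8 h against 1 h in batch 1 the values were 0.42 ± 0.17 for Zfp410 (SE, edgeR adjusted p = 0.045, lost with RLE size factors) and 0.83 ± 0.15 for Chd4 (SE, edgeR adjusted p = 6.6e-06). Zfp143 also rose in batch 1 at 8 h, to 8.07 to 17.4 CPM, against 1.14 to 9.42 CPM at 1 h, by 1.3 ± 0.31 (SE, edgeR adjusted p = 5.0e-04). Zfp148, which binds GC-rich promoters, was at 18.3, 24.7 and 13.1 CPM at 1 h, against 33 to 89 CPM at 0 h, and fell by 1.41 ± 0.30 (SE, edgeR adjusted p = 2.9e-04). Zfp219, a partner of Sox9 in cartilage, was lower, with a log2 fold change of -2.13 ± 0.47 at 1 h (SE, edgeR adjusted p = 4.4e-04), and Zfp335, a subunit of histone methyltransferase complexes, rose by 0.89 ± 0.25 at 8 h against 1 h in batch 1 (SE, edgeR adjusted p = 0.0025). Zfp384 passed in none of these comparisons. Zfp91, a ubiquitin ligase, was lower at 1 h, with a log2 fold change of -2.24 ± 0.65 (SE, edgeR adjusted p = 0.0075), or -1.21 (edgeR adjusted p = 0.18) without 1 h replicate 11. Zfp217, a partner of the CoREST corepressor, was higher at 8 h than at 1 h in batch 1 by 1.71 ± 0.49 (SE, edgeR adjusted p = 0.0037).

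Of the 6 members listed for RNA, ribosome and translation, 3 were higher and none lower at 4 h against 1 h in batch 1, with 24.2% and 22.1% over all genes. At 8 h against 4 h, 1 was higher and 2 lower, with 16.2% and 18.6% over all genes. Zfp706 rose to 258, 167 and 179 CPM at 4 h of batch 2, against 49.1 to 105 CPM at 0 h, by 1.33 ± 0.23 (SE, edgeR adjusted p = 6.9e-06) with no overlap. Zfp326, part of a complex that links splicing to transcript elongation, was at 4.28 to 16.1 CPM at 8 h, against 18.0 to 36.2 CPM at 4 h, a log2 fold change of -1.18 ± 0.21 (SE, edgeR adjusted p = 9.7e-06) with no overlap. The nucleolar protein gene Zfp330 also fell at 8 h against 4 h, with a log2 fold change of -0.94 ± 0.22 (SE, edgeR adjusted p = 5.8e-04). Zfp106, an RNA-binding protein gene, was lower at 1 h, with a log2 fold change of -1.45 ± 0.30 (SE, edgeR adjusted p = 2.5e-04) and rose at 8 h against 4 h by 0.62 ± 0.16 (SE, edgeR adjusted p = 0.0020), and over 20% of its exon length overlaps another gene. Zfp622, needed for ribosome assembly, was lower at 8 h than at 1 h, with a log2 fold change of -1.0 ± 0.30 (SE, edgeR adjusted p = 0.0059), and Zfp830, a splicing protein gene, was higher at 4 h than at 1 h in batch 1 by 0.94 ± 0.32 (SE, edgeR adjusted p = 0.013).

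Of the 4 members listed for imprinting and retroelement silencing, 2 were lower and none higher at 1 h than at 0 h, with 23% and 8.42% over all genes. Zfp445, which keeps imprints with Zfp57, was at 13.4, 8.99 and 0 CPM at 1 h, against 20.6 to 46.6 CPM at 0 h, a log2 fold change of -1.77 ± 0.38 (SE, edgeR adjusted p = 3.2e-04). It rose at 8 h against 1 h in batch 1 by 0.88 ± 0.21 (SE, edgeR adjusted p = 4.5e-04). Zfp932, a silencer of endogenous retroviruses that shares 45.2% of its 50-base words with Gm15446, was at 6.10, 2.25 and 13.1 CPM at 1 h, against 8.87 to 38.1 CPM at 0 h, a log2 fold change of -1.70 ± 0.45 (SE, edgeR adjusted p = 0.0032). Without 1 h replicate 12 the value was -1.21 (edgeR adjusted p = 0.064). Zfp57 and Zfp568, which represses a placental transcript of Igf2, were called in no comparison within a batch.

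The 5 members listed for development counted 1 higher and 2 lower at 1 h, with 8.42% and 23% over all genes. Zfp703, a Groucho partner known from breast cancer, was at 19.5, 13.5 and 33.9 CPM at 1 h, against 0.57 to 2.72 CPM at 0 h (median 1.54), with a log2 fold change of 3.77 ± 0.61 (SE, edgeR adjusted p = 5.4e-06). All 3 follicles lay above all 9, and the value at 4 h, 2.64 ± 0.58 (SE, edgeR adjusted p = 2.3e-04), was 1.2 (edgeR adjusted p = 0.24) without 4 h replicate 11, the only one of the 3 above 4 CPM. Of its exon length, 13.5% overlaps Gm45371 on the opposite strand. Zfp292 stood at 6.1, 20.2 and 7.83 CPM at 1 h, against 32.7 to 87.9 CPM (median 46) at 0 h, a log2 fold change of -2.23 ± 0.37 (SE, edgeR adjusted p = 7.7e-06). Zfp704 passed in none of the comparisons within a batch. Zfp516, an activator of brown fat genes, was lower at 4 h than at 1 h in batch 1, with a log2 fold change of -0.67 ± 0.21 (SE, edgeR adjusted p = 0.0087). In the list for cell division, Zfp367, whose transcript is tied to proliferation, fell by 1.26 ± 0.31 at 4 h against 1 h in batch 1 (SE, edgeR adjusted p = 8.5e-04), to 3.86 to 14.4 CPM, against 7.43 to 49.6 CPM.

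**Figure D3:**
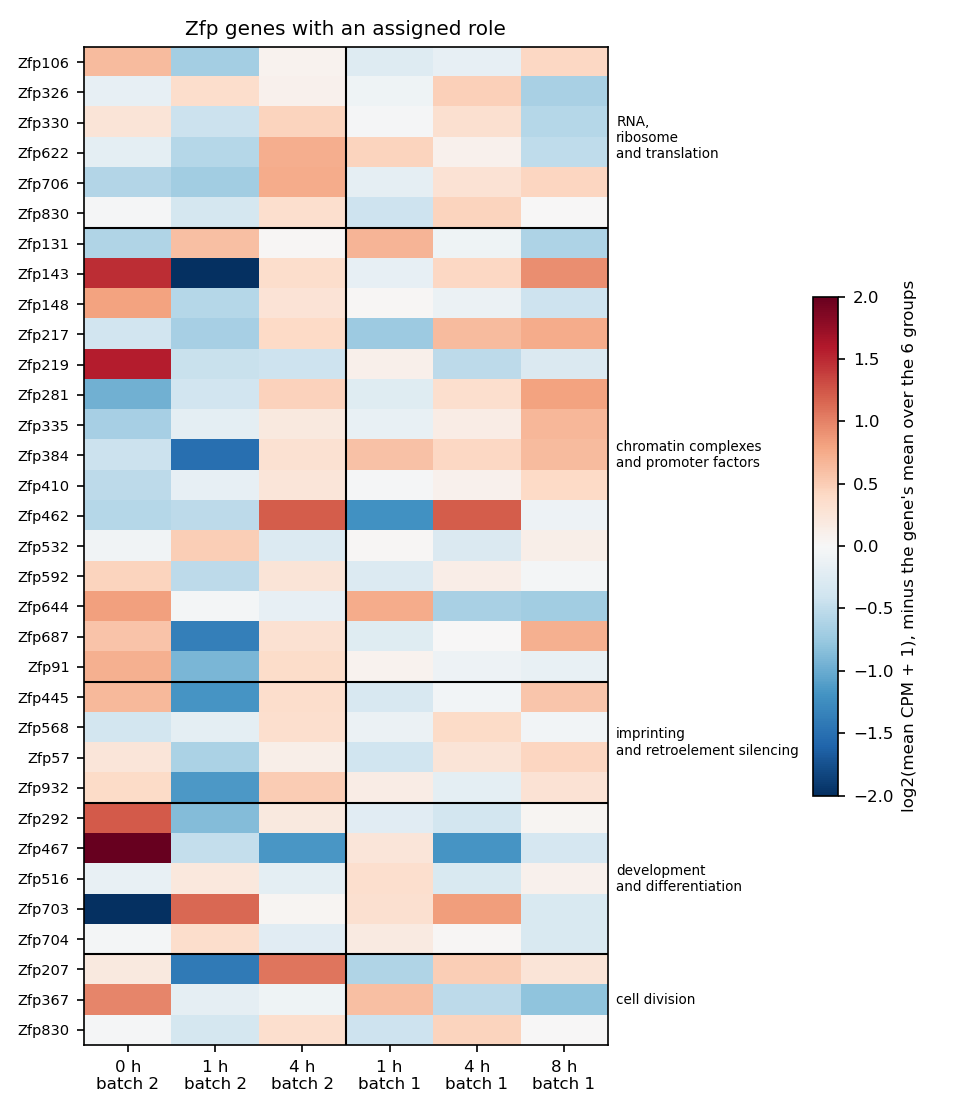
Mean level of 32 Zfp genes with an assigned role in the 6 groups of follicles, as log2(mean CPM + 1) minus the gene's mean over the groups (colour, from -2 to 2), with batch 2 left of the line and batch 1 right of it and Zfp830 shown in both lists that hold it. The 1 h column of batch 2 is lowest for Zfp143, Zfp384, Zfp687 and Zfp207, and the 0 h column is highest for Zfp467 and Zfp219.

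Among the remaining members with the largest changes from 4 h to 8 h in batch 1, Zfp451, a SUMO ligase, was lower at 8 h, with a log2 fold change of -0.96 ± 0.19 (SE, edgeR adjusted p = 6.1e-05). Zfp101 was higher at 8 h than at 4 h by 0.67 ± 0.23 (SE, edgeR adjusted p = 0.017) and Zfp65 by 0.96 ± 0.29 (SE, edgeR adjusted p = 0.0070).

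By protein class, 14 of the 54 KRAB genes (25.9%) were lower and 4 higher at 1 h than at 0 h, with 23% and 8.42% over all genes. The lower share of all genes was 20.3% without those at 0 in the 6 batch 2 libraries after hCG. Of the genes with fingers alone, 29 of the 66 (43.9%) were lower and 2 higher. At 4 h against 1 h in batch 1 the counts were 11 higher and 10 lower for KRAB genes and 21 higher and 9 lower for the genes with fingers alone, with 24.2% of all genes higher and 22.1% lower. The difference between the classes was not tested. The 8 SCAN genes had 1 higher and 2 lower at 1 h, and 1 higher and none lower at 8 h against 1 h in batch 1.

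The largest rises of called KRAB genes over 0 h, 4 at 1 h and 4 at 4 h, belong to a run of 5 members on mouse chromosome 17, between 21450374 and 21769342 of GRCm38, all on the plus strand. This run was picked out after its values were seen and is described without a test. Zfp52 was at 143, 45.4 and 76.1 CPM at 4 h of batch 2, against 1.67 to 10.0 CPM at 0 h (median 4.16), and at 25.6, 38.2 and 26.1 CPM at 1 h. In batch 1 it ranged from 55.2 to 164 CPM at 8 h (median 134), against 17.7 to 64.4 CPM at 1 h (median 24). Its log2 fold change was 4.28 ± 0.38 at 4 h and 2.71 ± 0.44 at 1 h against 0 h, and 1.98 ± 0.28 at 8 h against 1 h (SE, edgeR adjusted p = 1.3e-12, 5.5e-06 and 1.2e-07). The follicles of batch 2 after hCG all lay above those at 0 h.

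Zfp53, next to it, was at 54.4, 21.1 and 25.4 CPM at 4 h and 34.2, 13.5 and 13.1 CPM at 1 h in batch 2, against 2.38 to 5.87 CPM at 0 h (median 4.31). In batch 1 it ranged from 56.6 to 121 CPM at 8 h (median 91.6), against 9.93 to 29.7 CPM at 1 h (median 15.3), and rose by 2.52 ± 0.23 (SE, edgeR adjusted p = 1.3e-12) with no overlap. Zfp948 was at 46.9, 23 and 37.6 CPM at 4 h and 51.2, 47.2 and 7.83 CPM at 1 h, against 0 to 7.13 CPM at 0 h (median 2.72), with 3.51 ± 0.55 at 1 h against 0 h (SE, edgeR adjusted p = 3.1e-06). Zfp51 rose by 1.89 ± 0.35 at 4 h against 0 h (SE, edgeR adjusted p = 2.0e-05) and Zfp229 by 1.84 ± 0.50 at 1 h against 0 h (SE, edgeR adjusted p = 0.0039). All 5 were also higher at 8 h than at 1 h in batch 1, by 0.82 for Zfp51 to 2.52 for Zfp53 on the log2 scale.

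The next 6 members along the chromosome, up to Zfp945 at its end position 22867134, included none called higher in a comparison within a batch. Zfp945 was lower at 4 h than at 0 h, with a log2 fold change of -2.69 ± 0.62 (SE, edgeR adjusted p = 4.3e-04), and the value was -1.64 for Zfp994 (edgeR adjusted p = 9.9e-04), -1.55 for Zfp944 (edgeR adjusted p = 0.0082) and -0.75 for Zfp942 (edgeR adjusted p = 0.044). Zfp943 was lower at 8 h than at 1 h in batch 1, at 0.50 to 5.03 CPM against 6.52 to 12.6 CPM, with a log2 fold change of -1.43 ± 0.34 (SE, edgeR adjusted p = 4.6e-04), and Zfp758 passed in none. Some Zfp genes on this stretch were under the level of the members. Zfp983 and Zfp760 lie between Zfp948 and Zfp229, within the run described above. Zfp983 was not tested, and Zfp760 was lower at 1 h than at 0 h (edgeR adjusted p = 0.043). Further along, Zfp820, Zfp947 and Zfp946 passed in no comparison within a batch.

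**Figure D4:**
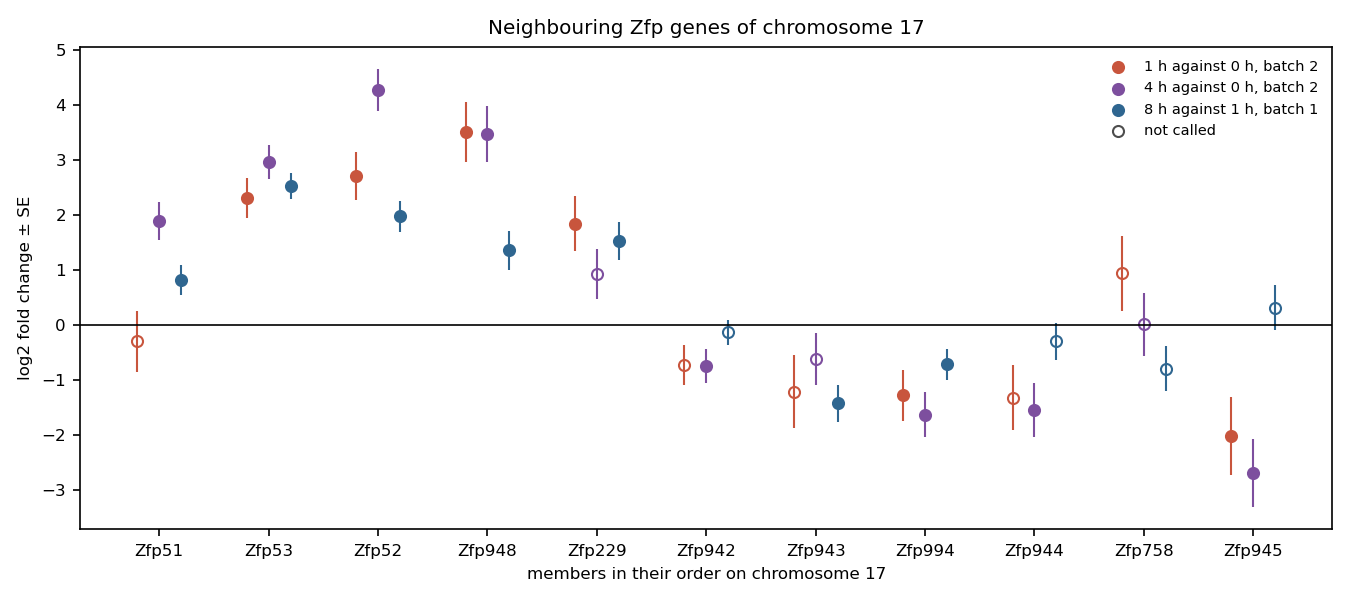
Log2 fold change ± SE (edgeR) of the 11 members on the stretch of chromosome 17, in their order along it, for 1 h and 4 h against 0 h in batch 2, which share the 0 h follicles, and 8 h against 1 h in batch 1, with open circles for values that missed an adjusted p of 0.05. The first 5 genes lie above 0 apart from Zfp51 at 1 h. The next 6 lie near or below 0 apart from Zfp758 at 1 h and Zfp945 at 8 h, which were not called.

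Some promoters of these neighbours are related in sequence, as the 5 sequences below show. They cover 250 bases before to 50 bases after the start of each gene, from RefSeq on GRCm38.p6, and all 5 are on the plus strand. Of the 130 members, 106 matched an entry there. Zfp53 (chr17:21488738-21489037), Zfp52 (chr17:21535289-21535588) and Zfp948 (chr17:21566728-21567027) are genes that rose, and the capitals mark the 12 bases that a search found in all 3.

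Zfp53: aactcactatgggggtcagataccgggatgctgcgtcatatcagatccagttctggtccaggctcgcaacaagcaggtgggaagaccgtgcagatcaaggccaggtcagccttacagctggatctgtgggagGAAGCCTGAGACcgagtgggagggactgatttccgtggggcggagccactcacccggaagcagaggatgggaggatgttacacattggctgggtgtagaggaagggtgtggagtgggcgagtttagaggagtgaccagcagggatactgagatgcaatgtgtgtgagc
Zfp52: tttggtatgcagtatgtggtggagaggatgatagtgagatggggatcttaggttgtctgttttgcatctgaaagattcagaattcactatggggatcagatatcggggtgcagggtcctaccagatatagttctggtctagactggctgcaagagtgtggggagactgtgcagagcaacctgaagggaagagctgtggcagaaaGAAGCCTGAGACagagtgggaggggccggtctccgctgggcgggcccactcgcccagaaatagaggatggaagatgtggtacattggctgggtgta
Zfp948: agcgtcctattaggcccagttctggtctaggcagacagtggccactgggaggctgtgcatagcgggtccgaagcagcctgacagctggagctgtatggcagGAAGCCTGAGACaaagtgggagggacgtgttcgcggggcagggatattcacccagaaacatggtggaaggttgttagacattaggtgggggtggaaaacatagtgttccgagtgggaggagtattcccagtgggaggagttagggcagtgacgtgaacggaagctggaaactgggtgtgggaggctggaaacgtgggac

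Local alignment gave 173 identical bases of 230 aligned (75.2%) between Zfp53 and Zfp52 and 164 of 229 (71.6%) between Zfp53 and Zfp948. The promoter of Zfp229, which also rose, aligned with that of Zfp53 over only 36 bases, and that of Zfp51 was not compared. The capital run occurred in 6 of 27025 promoters (0.022%), the 3 others being those of Gm9376, H1f2 and Igf2. Zfp943 (chr17:21962309-21962608) and Zfp758 (chr17:22361213-22361512) are shown because they did not rise and are near-copies of each other, with 292 of 293 aligned bases identical (99.7%). Their capitals mark an E-box, CACGTG, which reads the same on both strands.

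Zfp943: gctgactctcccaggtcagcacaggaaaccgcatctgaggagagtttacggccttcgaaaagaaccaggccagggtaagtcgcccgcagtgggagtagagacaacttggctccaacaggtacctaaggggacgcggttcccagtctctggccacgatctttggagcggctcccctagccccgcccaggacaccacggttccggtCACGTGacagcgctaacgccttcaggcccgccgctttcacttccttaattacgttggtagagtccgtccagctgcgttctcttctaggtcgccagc
Zfp758: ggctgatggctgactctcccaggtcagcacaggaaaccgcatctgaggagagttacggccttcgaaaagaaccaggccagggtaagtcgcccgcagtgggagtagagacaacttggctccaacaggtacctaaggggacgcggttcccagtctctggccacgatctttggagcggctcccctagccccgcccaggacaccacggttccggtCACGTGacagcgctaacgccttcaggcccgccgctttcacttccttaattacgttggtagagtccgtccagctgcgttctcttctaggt

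Those windows overlap those of the minus-strand neighbours, by 194 bases for Zfp943 with Zfp942 and by 162 bases for Zfp758 with Zfp944, so each pair of genes starts from shared sequence. The E-box was in the windows of Zfp942, Zfp943, Zfp944, Zfp758 and Zfp994 and in none of Zfp52, Zfp53, Zfp948, Zfp229 and Zfp945, the last of which did not rise. A CCAAT box (CCAAT, either strand) and a GC box (GGGCGG, either strand) were both in Zfp52, Zfp53 and Zfp229 and also in Zfp994, which was lower at 4 h than at 0 h, and neither was in Zfp948. Over the 106 member promoters, CCAAT was in 51.9%, against 37.9% of all 27025 promoters, and GGGCGG was in 53.8%, against 35.9%. The ETS core CCGGAAGT was in 13.2% of member promoters, against 4.0% of all, and CACGTG in 9.43%, against 7.24%. The CRE, TGACGTCA, was in 3.77%, against 1.88%, and the AP-1 site TGAGTCA in 4.72%, against 5.17%, with both strands searched throughout. CCAAT was in 63.8% of the 47 KRAB promoters, against 42.4% of the 59 others, and GGGCGG in 40.4%, against 64.4%. The median GC content was 55.7% for members, against 52.7% for all promoters.

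The steps of the members from 1 h to 4 h could be tested for a difference between batches. It passed for 6 of 130 members, lower in batch 1 for 5 and higher for 1, with 1.63% of all genes higher and 3.14% lower. Besides Zfp207 these were Zfp68, at -0.10 in batch 1 and 3.99 in batch 2 (edgeR adjusted p of the difference 5.4e-04), and Zfp932, at -0.28 in batch 1 and 1.85 in batch 2 (edgeR adjusted p of the difference 0.016). The difference for Zfp932 missed the threshold without 1 h replicate 11, 1 h replicate 12 or 4 h replicate 12 of batch 2 (edgeR adjusted p from 0.051 to 0.087). Zfp229 went the other way, at 1.37 in batch 1 and -0.91 in batch 2 (edgeR adjusted p of the difference 0.043). For Zfp143 and Zfp719 the 1 h group of batch 2 had no counts, and they were at least 5.54-fold and 5.28-fold higher at 4 h there. The difference for Zfp143 missed the threshold without 1 h replicate 11 (edgeR adjusted p = 0.076) or 4 h replicate 11 (edgeR adjusted p = 0.091).

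**Figure D5:**
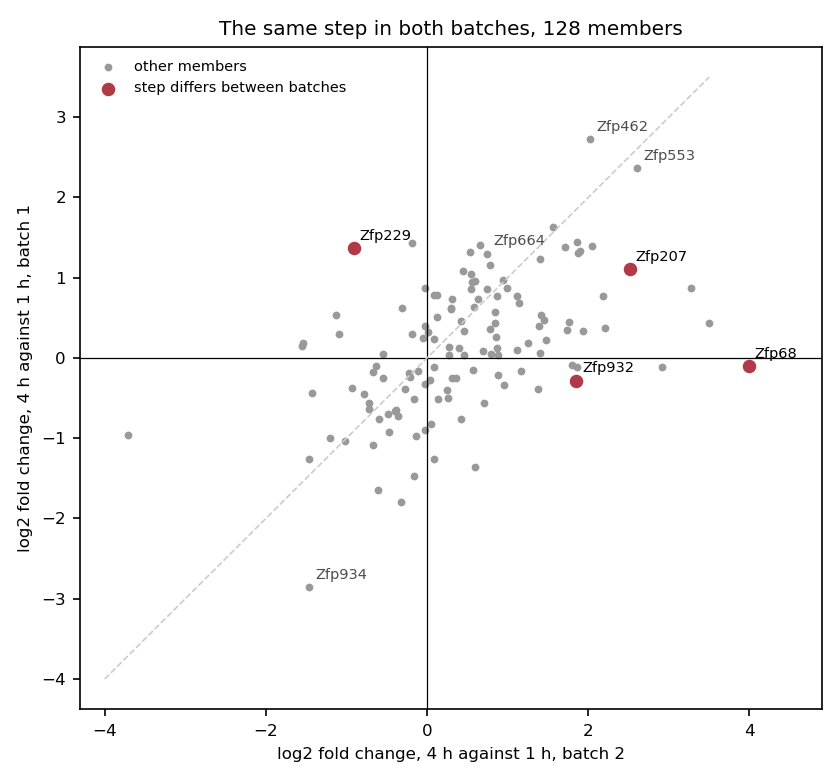
Log2 fold change of 4 h against 1 h in batch 1 (vertical) and in batch 2 (horizontal) for 128 Zfp genes, 1 point each, leaving out Zfp143 and Zfp719, which had no count at 1 h in batch 2, with a dashed line where both are equal. Zfp462 and Zfp553 are high in both, and the 4 red points are genes whose step differed between batches at an edgeR adjusted p under 0.05.

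KRAB proteins act through partners, and 29 of a list of 33 genes of the corepressor complex and of heterochromatin were tested. At 1 h against 0 h, 2 of the 29 were higher and 12 lower (41.4%), with 8.42% and 23% over all genes. At 8 h against 1 h in batch 1, 11 were higher (37.9%) and 4 lower, with 22.9% and 21.2% over all genes. Mta2, a NuRD subunit, was lower at 1 h, with a log2 fold change of -0.73 ± 0.18 (SE, edgeR adjusted p = 0.0020) and higher at 4 h against 1 h by 1.94 ± 0.22 in batch 2 and by 1.25 ± 0.12 in batch 1 (SE, edgeR adjusted p = 1.3e-08 and 1.8e-12). Ehmt1 was lower at 1 h, with a log2 fold change of -1.91 ± 0.31 (SE, edgeR adjusted p = 4.7e-06). Setdb1 was higher at 1 h by 0.91 ± 0.33 (SE, edgeR adjusted p = 0.033) and at 8 h against 1 h by 1.05 ± 0.21 (SE, edgeR adjusted p = 6.9e-05), and its cofactor Atf7ip rose at 8 h against 4 h by 2.21 ± 0.18 (SE, edgeR adjusted p = 9.9e-14). Trim28, the protein that KRAB domains bind, was lower at 8 h than at 1 h, with a log2 fold change of -0.45 ± 0.18 (SE, edgeR adjusted p = 0.034) and passed in no other comparison within a batch.

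Other zinc finger families under the same conditions gave a mixed picture. Of 22 Zbtb genes, whose proteins pair through a BTB domain, 1 was higher and 6 lower at 1 h than at 0 h. The lower share was 27.3%, against 23% of all genes and 20.3% without those at 0 in the 6 batch 2 libraries after hCG. At 4 h against 1 h in batch 2, 6 were higher and none lower, with 12.9% and 7.92% over all genes. Of 9 Zc3h genes, whose fingers bind RNA, 3 were higher and 1 lower at 1 h than at 0 h, with 8.42% and 23% over all genes. No difference between families was tested.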

How the data were processed

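The deposited count table gives whole-number reads per gene (25147 genes) in 46 single-follicle libraries, made with Smart-Seq2 and Nextera XT per the labels. HISAT2, Partek, DESeq2 and GRCm38 are named without versions in the submitters' processing notes, and the table's own name credits ComBat-seq, whose settings are not given in the sources used here. By that name the authors adjusted the counts for batch before deposit, which can move low counts and zeros. The deposited TPM table (25122 genes), as scaled for gene length by the authors, was used for levels and as an alternative with limma. Both tables hold columns that match no sample, 10 in each, and these were left out. The libraries are not stranded, so reads of genes that overlap on both strands may be mixed.

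The main test was the robust quasi-likelihood test of edgeR 4.0.16 under R 4.3.3, on all 46 libraries in 6 groups of time and batch, with TMM factors and the filterByExpr filter. Comparisons were made within a batch, and 8 h against 0 h with an additive fit of time and batch. P-values were adjusted over all 10524 genes tested by Benjamini-Hochberg. DESeq2 1.42.0 and limma 3.58.1 were alternatives, and the fit was tested on simulated data. Figures used matplotlib 3.10.9.

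The members and gene lists were chosen with earlier results of these data known. Named genes are the 10 members highest in TPM, and the 4 largest rises and 4 largest falls of each comparison among called members with a mean log2 CPM of 4 or more. Members of the role lists and the genes next to the 5 CPM limit were named as well. The classes of proteins came from letter patterns in translated coding sequences of the reference annotation. Total counts per library ran from 241442 to 5185044, and a group of 3 follicles with few counts limits the precision at 1 h in batch 2.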

Additional observations from a re-analysis of the deposited data

Results flagged for a closer look

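In 18 of 150 tested groups of a named gene, 1 follicle stood apart from the others by Dixon's test, and chance alone sets about 1 in 20 groups apart. Of these, 9 were in 4 h replicate 10 of batch 1, the library with the lowest total of all. That library was highest for Zfp148 at 57.53 CPM (next 30.87), Zfp217 at 21.57 CPM (next 9.75), Zfp644 at 25.17 CPM (next 17.71) and Zfp664 at 100.67 CPM (next 76.72). It was lowest for Zfp143 at 3.6 CPM (next 7.66), Zfp275 at 3.6 CPM (next 6.97), and Zfp568, Zfp687 and Zfp950 at 0.0 CPM (next 3.08, 5.13 and 3.27).

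At 0 h, replicate 3 held Zfp275 at 197.95 CPM (next 42.46) and replicate 2 held Zfp277 at 252.41 CPM (next 149.15). At 1 h of batch 1, replicate 1 was high for Zfp52 at 64.36 CPM (next 31.67) and Zfp706 at 158.43 CPM (next 111.59), and low for Zfp277 at 29.71 CPM (next 72.33). Replicate 5 was low for Zfp275 at 2.15 CPM (next 7.42) and for Zfp326 at 2.15 CPM (next 9.15). Replicate 7 was low for Zfp143 at 1.14 CPM (next 3.96) and replicate 9 for Zfp830 at 0.0 CPM (next 2.29).

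The step from 1 h to 4 h differed between batches for 6 members by the interaction term of the edgeR fit (adjusted p under 0.05). Batch 1 minus batch 2 was -1.41 for Zfp207, -4.09 for Zfp68, -2.13 for Zfp932 and 2.28 for Zfp229 on the log2 scale. It was -6.15 for Zfp143 and -6.65 for Zfp719, whose fitted values depend on a group with 0 counts and are no bounds.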

How the results depend on the processing

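Numbers of called members moved by over 1.5 times with a batch fitted alone, thinning, additive terms or the replicate block. With batch 2 fitted alone, 31 members were called at 1 h against 0 h, 27 at 4 h against 0 h and 8 at 4 h against 1 h. Thinned to the lowest total, where 33 members could be tested, 13 were called at 1 h against 0 h, 13 at 4 h against 0 h, 12 at 4 h against 1 h in batch 1 and 15 at 8 h against 1 h. With time plus batch as additive terms, 61 were called at 4 h against 1 h. Thinning tests fewer genes and batch 2 alone has fewer libraries; for the additive terms the cause was not tested. Leaving out 1 follicle gave 37 to 43 calls at 1 h against 0 h, 32 to 37 at 4 h against 0 h, 17 to 23 at 4 h against 1 h in batch 2 and 5 to 9 for the difference between batches. Of 166 results for 50 named genes, 105 kept their call under all alternatives run. Over 1745 such values, 1522 kept the call, 223 lost it and 0 turned direction.

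Each library's deviations from its group mean (log2 CPM, gene by gene) were compared between libraries with the same replicate number. Correlations of these deviations ran from -0.179 to 0.214 in batch 1 and from 0.006 to 0.033 in batch 2. Batch 2 has only 3 such pairs, too few to decide whether same-numbered libraries belong together. With the replicate block, 1 of 67 members tested was called at 4 h against 1 h in batch 2. In batch 1 (116 tested) the block gave 47 calls at 4 h against 1 h, 56 at 8 h against 1 h and 37 at 8 h against 4 h, 19 higher and 18 lower. Few counts at 1 h in batch 2 limit every comparison with that group.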
